A study of Homo sapiens with 24 samples.

Results

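The 10 genes described here encode pore-forming subunits of potassium channels known from heart muscle: KCNA5, KCNJ2, KCNJ3, KCNJ5, KCNJ8, KCNQ1, KCNH2, KCND2, KCND3 and KCNK3. They were chosen by symbol, through the Ensembl identifiers of the count table, and are 10 of its 62757 genes. All 10 had enough counts to be tested, among the 17724 genes that did. RNA was sequenced from cardiac cells made from HES3_NKX2-5GFP_NR2F2mCherry, an established human embryonic stem cell line with a GFP reporter for NKX2-5 and an mCherry reporter for NR2F2. The cells were grown as embryoid bodies under Wnt-modulating protocols for at most 14 days. AM and VM in the library titles are taken to mean atrial and ventricular, following the treatment protocols: atrial cultures received retinoic acid on day 4, and ventricular cultures did not. Cas9 was aimed at LHX2, ZNF503 or ZNF711, or at TRAC, a T cell receptor gene that served as the control target, so every group is labelled as targeted and comes from the line with both reporters; gene counts cannot show the edits. With 2 conditions and 4 targets there were 8 groups of 3 libraries, 24 in all. Whether replicates came from separate differentiations or clones is not given in the sources used here, so the p-values measure only the spread between these libraries, which may be partly technical.

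Potassium channels carry the outward currents that end the cardiac action potential and hold the membrane at rest between beats. The chambers of the mature heart use them unequally: the ultrarapid delayed rectifier, with KCNA5 as its pore, and the acetylcholine-activated inward rectifier, built from KCNJ3 and KCNJ5, are best known from the atria, while the strong inward rectifier KCNJ2 is prominent in working ventricular muscle. The other genes serve the slow and rapid delayed rectifiers (KCNQ1 and KCNH2), the transient outward current (KCND2 and KCND3), the ATP-sensitive channel (KCNJ8) and a background leak (KCNK3).

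Libraries held 2899786 to 7438010 counts (median 5113566.5). Levels are given as CPM, the count of a gene relative to the library's total and set to a common size, scaled for library composition by the TMM method. A count of 0 allows up to 3 counts, which corresponded to 0.447 to 0.963 CPM depending on the library; this limit covers counting error only. IRX4, a transcription factor of ventricular muscle, ranged from 0.259 to 2.66 CPM in AM and from 22.8 to 178 CPM in VM, and NR2F2, an atrial factor, from 320.2 to 514 CPM in AM and from 18.9 to 85.9 CPM in VM. MYL2, a defining gene of mature ventricular muscle, reached at most 9.21 CPM in VM. The summed level of 10 atrial markers, NR2F2 and MYL7 among them, overlapped, at 1294 to 2563 CPM in AM and 1245 to 2708 CPM in VM. MYL7 itself had a median of 587 CPM in AM and 1169 CPM in VM. The targeted genes were a weak check of the labels. LHX2 (at most 34 counts) and TRAC (at most 19 counts) were scarcely detected in any library. ZNF711 RNA in the libraries labelled ZNF711 lay below all 3 TRAC libraries in VM and overlapped them in AM, and the libraries labelled ZNF503 held more ZNF503 RNA than every TRAC library of the same condition.

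Between the atrial and ventricular conditions, 8 of the 10 channel genes differed when the 4 targets were averaged with equal weight (edgeR quasi-likelihood test, Benjamini-Hochberg adjustment over all tested genes, adjusted p below 0.05). KCNJ3, KCNA5, KCNJ2, KCNK3 and KCND2 were higher in AM, and KCND3, KCNJ8 and KCNJ5 were higher in VM. KCNQ1 and KCNH2 did not pass the test. Of all genes, 34.5% passed in this comparison, 16.8% higher and 17.6% lower in AM. The groups did not overlap, 12 libraries against 12, for 3 of the 10 genes (KCNA5, KCNJ2 and KCNJ3), against 4.25% of all genes. Within single targets, where 3 libraries faced 3, the channel genes that passed numbered 6 in TRAC (11.3% of all genes passed), 4 in LHX2 (8.56%), 6 in ZNF503 (8.86%) and 5 in ZNF711 (13.2%). Without AM ZNF503 replicate 1 the ZNF503 count was 3, and without AM ZNF711 replicate 1 or 2 the ZNF711 count was 3. Leaving out single libraries gave 4 or 5 in TRAC and 3 to 5 in LHX2. The median absolute log2 difference of the 10 genes over the 4 targets was 1.37. In these bulk libraries fewer cells of a type and less RNA per cell cannot be told apart.

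**Figure D1:**
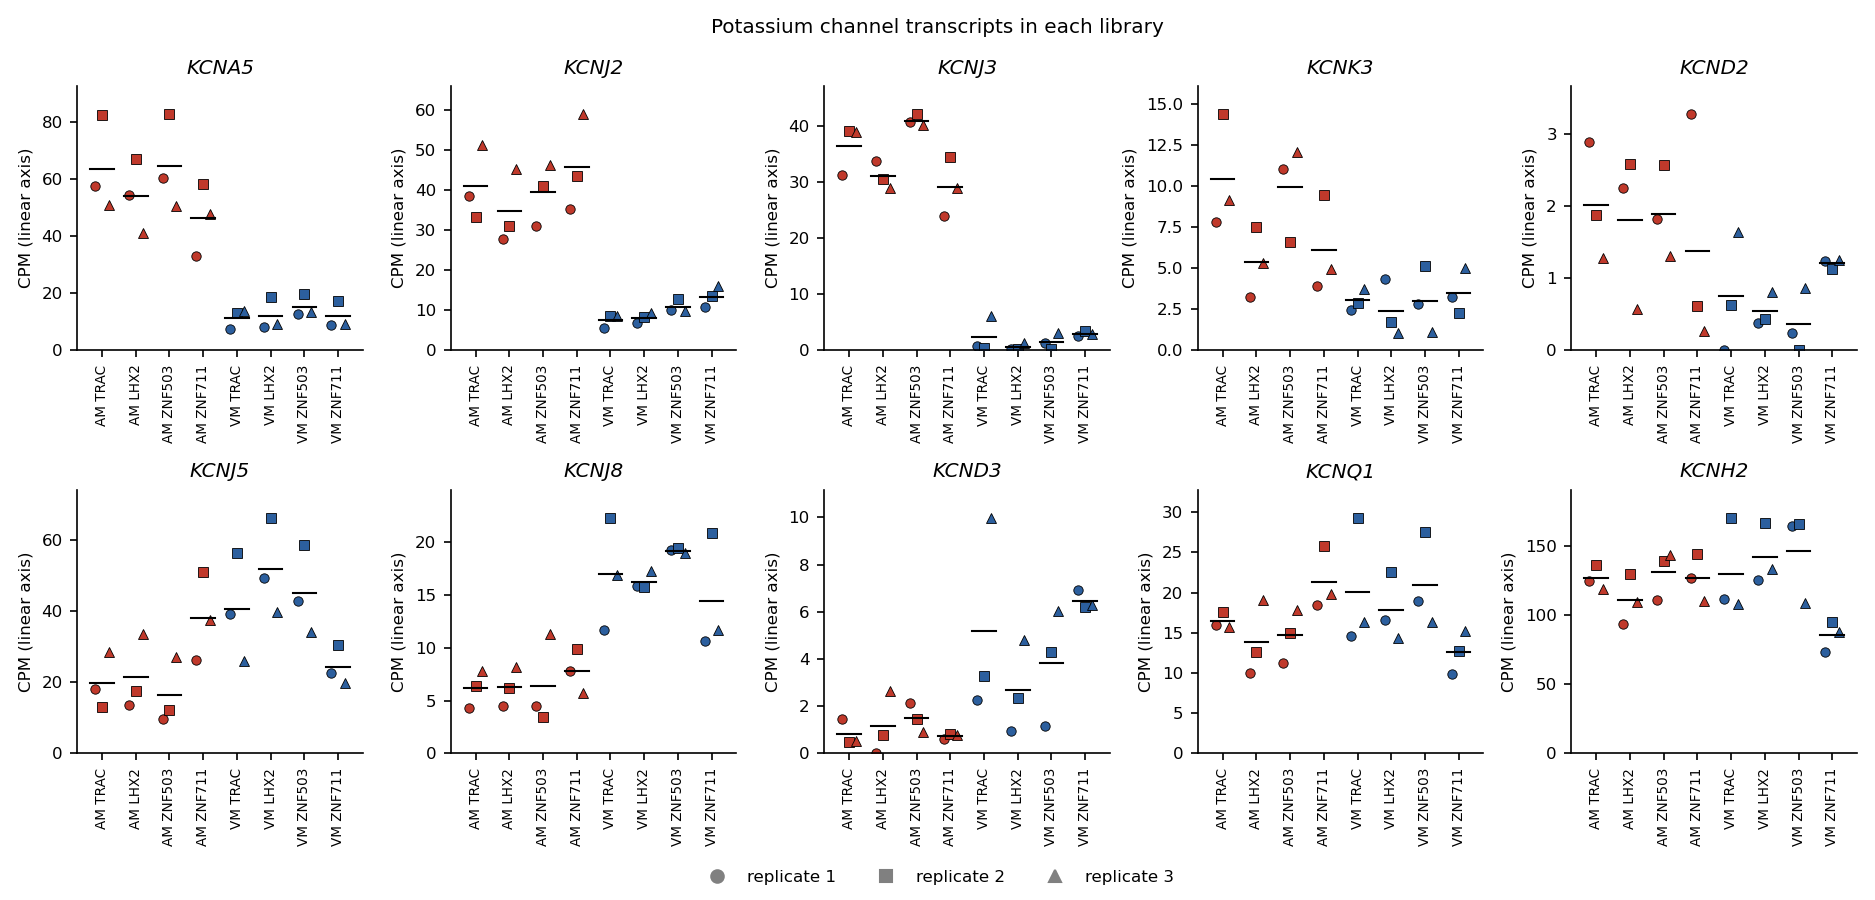
CPM of the 10 channel genes in the 24 libraries, 1 panel per gene on a linear axis starting at 0, with the 8 groups on the horizontal axis (red AM, blue VM), a symbol for each replicate number and a black bar at the group mean. KCNA5, KCNJ2 and KCNJ3 were higher in every AM library than in every VM library, while KCNQ1 and KCNH2 overlapped.

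KCNJ3 (ENSG00000162989.5, GRCh38 chr2:154698299-154858352, plus strand) encodes a subunit of the acetylcholine-activated channel through which the vagus nerve slows the heart. Replicates 1 to 3 of AM TRAC had 31.3, 39.2 and 39.0 CPM, those of VM TRAC 0.615, 0.413 and 6.11 CPM. Over all targets AM libraries ranged from 23.9 to 42.1 CPM (median 34.1) and VM libraries from 0.188 to 6.11 CPM (median 1.19). Every AM library was above every VM library, and within VM the replicate 3 library of TRAC was the highest, with 41 counts where replicates 1 and 2 had 3 and 2. The log2 difference over the 4 targets was 4.42 ± 0.30 (SE, adjusted p = 1.59e-10), the largest of the 10. The 4 single-target differences ran from 3.29 in ZNF711 to 5.80 in LHX2, and all passed in the main fit. Because VM levels lay near 3 counts in several libraries, the fold depends on few reads: without VM TRAC replicate 3 the TRAC difference was 6.09 in place of 3.80.

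KCNA5 (ENSG00000130037.5, chr12:5043989-5046788, plus strand) encodes the pore of the ultrarapid delayed rectifier. It was 57.3, 82.4 and 50.8 CPM in AM TRAC against 7.39, 12.8 and 13.7 CPM in VM TRAC. Over all targets it ranged from 32.9 to 82.6 CPM in AM (median 55.8) and from 7.39 to 19.6 CPM in VM (median 12.6), without overlap. The log2 difference was 2.17 ± 0.17 (SE, adjusted p = 4.16e-10) over the targets. It lay between 1.95 in ZNF711 and 2.48 in TRAC, and passed in each target in the main fit. Within both conditions the replicate 2 library held the highest KCNA5 level of its group in 7 of the 8 groups, the exception being VM TRAC.

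KCNJ2 (ENSG00000123700.5, chr17:70168673-70180048, plus strand) encodes the main strong inward rectifier, which sets the resting potential of working muscle. It was 38.3, 33.1 and 51.0 CPM in AM TRAC against 5.54, 8.46 and 8.49 CPM in VM TRAC. All 12 AM libraries were above all 12 VM libraries. AM libraries ranged from 27.6 to 58.8 CPM (median 39.7) and VM libraries from 5.54 to 15.9 CPM (median 9.44), a log2 difference of 2.04 ± 0.13 (SE, adjusted p = 3.83e-12). Each target passed in the main fit, from 1.77 in ZNF711 to 2.43 in TRAC. KCNJ2-AS1, an antisense gene whose span overlaps the start of KCNJ2, was higher in AM as well, at 1.49 to 4.58 CPM against 0 to 1.29 CPM in VM (log2 difference 2.30 ± 0.44, adjusted p = 0.000173). Whether counting used strand is not given in the sources used here, so reads from the overlap of both genes cannot be told apart.

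Because these 3 genes kept all AM libraries apart from all VM libraries, the sequence around their starts is shown, from RefSeq (GRCh38.p14), 250 bases before to 50 bases after the annotated start, 5′ to 3′. The KCNJ3 window is chr2:154698445-154698744, the KCNA5 window chr12:5043629-5043928 and the KCNJ2 window chr17:70169282-70169581, all on the plus strand.
KCNJ3: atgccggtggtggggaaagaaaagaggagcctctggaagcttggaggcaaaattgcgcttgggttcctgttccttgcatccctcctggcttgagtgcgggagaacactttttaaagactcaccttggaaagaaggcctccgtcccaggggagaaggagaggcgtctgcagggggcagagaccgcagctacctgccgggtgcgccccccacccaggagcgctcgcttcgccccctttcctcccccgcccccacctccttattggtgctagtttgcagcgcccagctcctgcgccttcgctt
KCNA5: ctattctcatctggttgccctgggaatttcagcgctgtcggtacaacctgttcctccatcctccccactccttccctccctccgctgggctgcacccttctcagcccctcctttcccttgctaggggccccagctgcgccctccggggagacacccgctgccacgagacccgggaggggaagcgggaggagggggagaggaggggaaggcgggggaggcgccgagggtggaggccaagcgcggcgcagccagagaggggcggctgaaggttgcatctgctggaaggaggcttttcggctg
KCNJ2: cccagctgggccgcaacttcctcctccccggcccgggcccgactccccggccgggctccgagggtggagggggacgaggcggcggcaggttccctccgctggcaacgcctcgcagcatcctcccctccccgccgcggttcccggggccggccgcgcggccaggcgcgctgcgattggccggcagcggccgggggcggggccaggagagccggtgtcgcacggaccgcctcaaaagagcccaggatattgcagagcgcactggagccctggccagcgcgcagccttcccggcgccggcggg
Short motifs were searched on both strands. The nuclear receptor half-site, for a class that holds the retinoic acid receptors and NR2F2, was AGGTCA and occurs in 13.8% of the 35116 windows of this length in the table. The T-box core was GGTGTG, found in 16.8% of them. The GATA site was AGATAA, found in 10.3%, and the TATA box was TATAAA, found in 11.5%. None of the 4 occurs in these 3 windows. A match would describe letters only, and its absence says nothing about factors acting elsewhere. The 3 windows were GC-rich, at 61.7% for KCNJ3, 67.3% for KCNA5 and 78.0% for KCNJ2, with a median of 58.7% over all windows. RefSeq windows were matched for 9 of the 10 genes.

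KCNK3 and KCND2 were higher in AM by smaller margins and at lower counts. KCNK3 (ENSG00000171303.8, chr2:26692690-26733420), the acid-sensitive two-pore leak channel TASK-1, was 7.77, 14.4 and 9.11 CPM in AM TRAC against 2.46, 2.89 and 3.73 CPM in VM TRAC. The TRAC groups did not overlap, as for 6 of the 10 genes and 26.1% of all genes, but over all targets the AM range of 3.21 to 14.4 CPM overlapped the VM range of 1.001 to 5.11 CPM. The log2 difference was 1.37 ± 0.26 over the targets (SE, adjusted p = 0.000213); it passed in TRAC (1.77, adjusted p = 0.0257) and ZNF503 (1.71, adjusted p = 0.0394) and not in LHX2 (1.18, adjusted p = 0.217) or ZNF711 (0.81, adjusted p = 0.345). The TRAC call was lost without AM TRAC replicate 2, VM TRAC replicate 1 or VM TRAC replicate 2 (adjusted p = 0.140, 0.0797 and 0.0686). The ZNF503 call was lost without AM ZNF503 replicate 1 or 3 or VM ZNF503 replicate 1 or 3, with adjusted p up to 0.190.

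KCND2 (ENSG00000184408.10, chr7:120273668-120750331, plus strand), a pore of the transient outward current, had 1 to 16 counts per AM library and 0 to 11 per VM library. The AM libraries ranged from 0.260 to 3.27 CPM (median 1.84) and the VM libraries from 0 to 1.64 CPM (median 0.710), so the ranges overlapped at levels close to the detection limit. The log2 difference of 1.38 ± 0.48 (SE, adjusted p = 0.0280) passed over the 4 targets and in no single target. It did not pass without AM ZNF711 replicate 1 (0.98, adjusted p = 0.146), the only ZNF711 atrial library with more than 3 KCND2 counts, nor without AM LHX2 replicate 2, AM ZNF503 replicate 2 or AM TRAC replicate 1 (adjusted p = 0.0584, 0.0525 and 0.0550). Matches outside the 5 genes higher in AM were a T-box core in a KCND3 window, 4 T-box cores in a KCNH2 window and a TATA box in another KCNH2 window. KCND2 is shown because its window, chr7:120272925-120273224 on the plus strand, is the one window among the 5 genes higher in AM with a match. That match, in capitals, is to the nuclear receptor half-site, which occurs in 13.8% of all windows.
KCND2: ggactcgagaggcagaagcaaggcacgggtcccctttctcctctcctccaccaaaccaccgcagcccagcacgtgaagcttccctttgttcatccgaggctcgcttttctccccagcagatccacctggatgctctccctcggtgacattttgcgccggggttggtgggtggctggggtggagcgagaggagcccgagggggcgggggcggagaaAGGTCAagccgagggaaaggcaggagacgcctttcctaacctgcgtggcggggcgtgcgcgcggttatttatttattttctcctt

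Of the genes higher in VM, KCND3 (ENSG00000171385.11, chr1:111770662-111989155, minus strand), the other pore of the transient outward current, differed most. It was 1.45, 0.468 and 0.547 CPM in AM TRAC against 2.26, 3.30 and 9.98 CPM in VM TRAC. The TRAC groups did not overlap, and 67 of the 94 VM TRAC counts were in replicate 3. The log2 difference over the targets was −2.04 ± 0.39 (SE, adjusted p = 0.000204). It passed in TRAC (−2.65, adjusted p = 0.0278) and ZNF711 (−3.10, adjusted p = 0.0126) and not in LHX2 (−1.08, adjusted p = 0.486) or ZNF503 (−1.32, adjusted p = 0.350). The TRAC call was lost without VM TRAC replicate 3 (−1.74, adjusted p = 0.222), AM TRAC replicate 2 (adjusted p = 0.130) or AM TRAC replicate 3 (adjusted p = 0.106), and the ZNF711 call without AM ZNF711 replicate 1 or 2 (adjusted p = 0.0526 and 0.0504). The 2 transient outward pores therefore had opposite signs over the 4 targets, KCND2 positive and KCND3 negative. KCND2 passed in no single target, and in ZNF711 (0.22 ± 0.92) it turned negative without AM ZNF711 replicate 1 (−1.39), with the replicate number as a block within each condition (−0.10) and with scaling to cardiomyocyte markers (−0.64).

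KCNJ8 (ENSG00000121361.5, chr12:21764955-21775581, minus strand) encodes a pore of the ATP-sensitive channel, which opens when cellular ATP falls and is also abundant in pericytes and smooth muscle. It was 4.34, 6.40 and 7.83 CPM in AM TRAC against 11.7, 22.3 and 16.8 CPM in VM TRAC, without overlap. Over all targets it ranged from 3.48 to 11.3 CPM in AM (median 6.30) and from 10.6 to 22.3 CPM in VM (median 17.0), where the highest AM library, ZNF503 replicate 3, overlapped the lowest VM library. The log2 difference was −1.31 ± 0.19 (SE, adjusted p = 4.07e-06), and it passed in TRAC (−1.45), LHX2 (−1.34) and ZNF503 (−1.58) but not in ZNF711 (−0.88, adjusted p = 0.119). With the block within each condition it passed there too (adjusted p = 0.0451, 27.8% of all genes). Each of these 3 calls was lost when certain single libraries were left out: AM TRAC replicate 1 or VM TRAC replicate 2 for TRAC, any LHX2 library but AM LHX2 replicate 3 for LHX2, and AM ZNF503 replicate 1 or 2 for ZNF503, with adjusted p from 0.0515 to 0.125. Of 12 pericyte and smooth muscle markers, 11 were counted in every AM library and 10 in every VM library. Only the pericyte gene HIGD1B was at 0 in all 24 libraries. The summed level of the 12 markers was 1123 to 2156 CPM in AM and 837 to 1369 CPM in VM. Of the 11 that could be tested, 4 were higher and 4 lower in AM over the 4 targets. Beside these, 16.8% and 17.6% of all genes were. The median log2 difference of the 11 was −0.097.

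KCNJ5 (ENSG00000120457.12, chr11:128891356-128921035, plus strand) encodes the partner of KCNJ3 in the acetylcholine-activated channel. It was 18.1, 13.1 and 28.6 CPM in AM TRAC against 39.2, 56.5 and 26.1 CPM in VM TRAC. Replicate 3 was the highest of the AM TRAC libraries and the lowest of the VM TRAC libraries, and the groups overlapped through those 2. The same held in LHX2 and ZNF503, except that those groups did not overlap. The log2 difference over the targets was −0.77 ± 0.20 (SE, adjusted p = 0.00444). It passed in ZNF503 (−1.48, adjusted p = 0.0232), though not without AM ZNF503 replicate 1 or 2 or VM ZNF503 replicate 1 or 2 (adjusted p up to 0.132), and it did not pass in LHX2 (−1.24, adjusted p = 0.0600) or TRAC (−1.02, adjusted p = 0.108). In ZNF711 the sign was the other way, with 26.2, 50.9 and 37.5 CPM in AM against 22.5, 30.5 and 19.9 CPM in VM (0.65, 95% interval −0.19 to 1.496, adjusted p = 0.315). With the block within each condition, KCNJ5 passed in all 4 targets, with a positive sign in ZNF711 (adjusted p = 0.0124) and a negative one in TRAC (adjusted p = 0.000318), LHX2 (adjusted p = 1.53e-05) and ZNF503 (adjusted p = 9.02e-07). Of all genes 23.7% passed in that fit in TRAC and 19.5% in LHX2.

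KCNJ3 and KCNJ5 co-assemble, and the ratio of their levels per kilobase of exon differed between the conditions in every library. KCNJ3 per KCNJ5 was 2.09, 3.60 and 1.64 in AM TRAC, against 0.0189, 0.00880 and 0.282 in VM TRAC. Across AM libraries it ran from 0.815 to 5.05 (median 1.93), and across VM libraries from 0.00386 to 0.282 (median 0.0347), the lowest resting on 1 KCNJ3 count. The 3 AM ZNF711 libraries, at 0.815 to 1.102, had less KCNJ3 per KCNJ5 than the 3 AM TRAC libraries. KCNJ5 thus had the higher level per kilobase in all 12 VM libraries.

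**Figure D2:**
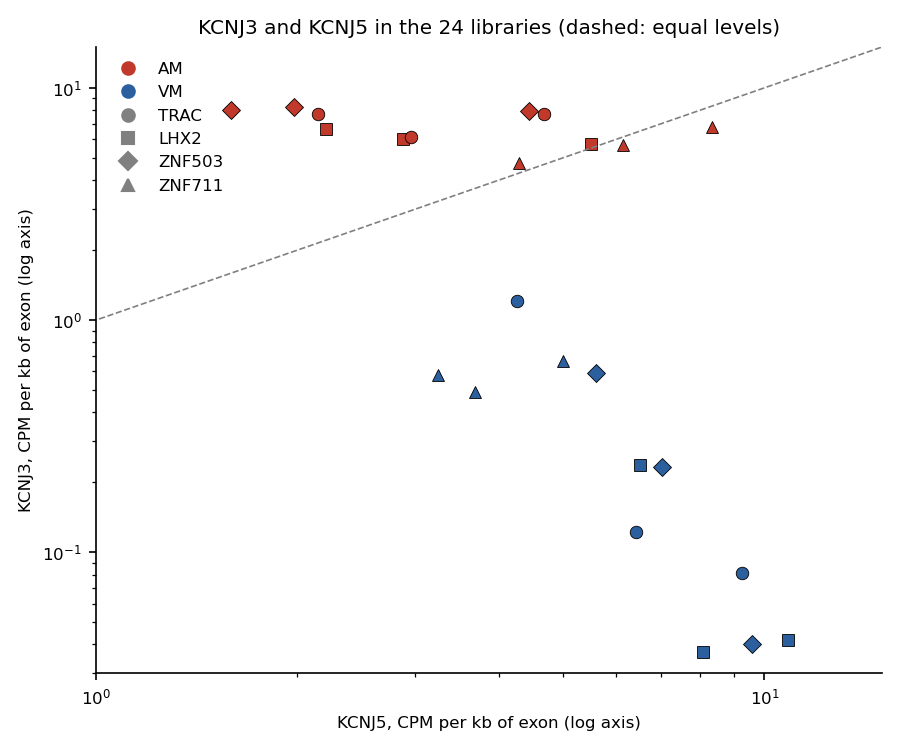
KCNJ3 against KCNJ5 in the 24 libraries, both as CPM per kilobase of exon on log axes, coloured by condition (red AM, blue VM) with a symbol for each target and a dashed line at equal levels. The VM libraries lie far below the line, at ratios of 0.00386 to 0.282, and the AM libraries lie around and above it, at 0.815 to 5.05.

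KCNQ1 and KCNH2, the pores of the slow and the rapid delayed rectifier and both long QT syndrome genes, showed the smallest differences. KCNQ1 (ENSG00000053918.18, chr11:2444684-2849110, plus strand) ranged from 9.96 to 25.8 CPM in AM and from 9.89 to 29.3 CPM in VM, and its log2 difference over the targets was −0.10 (95% interval −0.41 to 0.21, adjusted p = 0.650). KCNH2 (ENSG00000055118.17, chr7:150944961-150978315, minus strand) ranged from 93.8 to 144 CPM in AM and from 73.4 to 170.2 CPM in VM, with a log2 difference of 0.0069 (95% interval −0.19 to 0.20, adjusted p = 0.964). In LHX2 the KCNH2 difference of −0.35 did not pass (adjusted p = 0.300), but did with the block within each condition (adjusted p = 0.0359). KCNQ1OT1, a long RNA antisense to KCNQ1, was 267 to 622 CPM in AM and 329.6 to 798 CPM in VM, well above KCNQ1 itself, and was lower in AM (−0.32 ± 0.11, adjusted p = 0.0245); without knowledge of strand, its reads over KCNQ1 exons cannot be told apart from those of KCNQ1.

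In ZNF711 the RNA level of KCNH2 differed between the conditions in the main fit. KCNH2 was 127, 144 and 110.3 CPM in AM ZNF711 and 73.4, 94.99 and 88.0 CPM in VM ZNF711, so all AM libraries were above all VM libraries. The log2 difference of 0.57 ± 0.19 passed (SE, adjusted p = 0.0443), but no longer without any 1 of the libraries other than AM ZNF711 replicate 3 (adjusted p up to 0.167). KCNQ1 had the same sign there, at 18.4, 25.8 and 19.8 CPM against 9.89, 12.8 and 15.3 CPM (0.75 ± 0.29, adjusted p = 0.0948), and passed with the replicate number as a block (adjusted p = 0.0265), a fit in which 23.4% of all genes passed. Scaled to cardiomyocyte markers, which moved the median of all genes by −0.82, the differences were −0.28 for KCNH2 and −0.12 for KCNQ1.

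**Figure D3:**
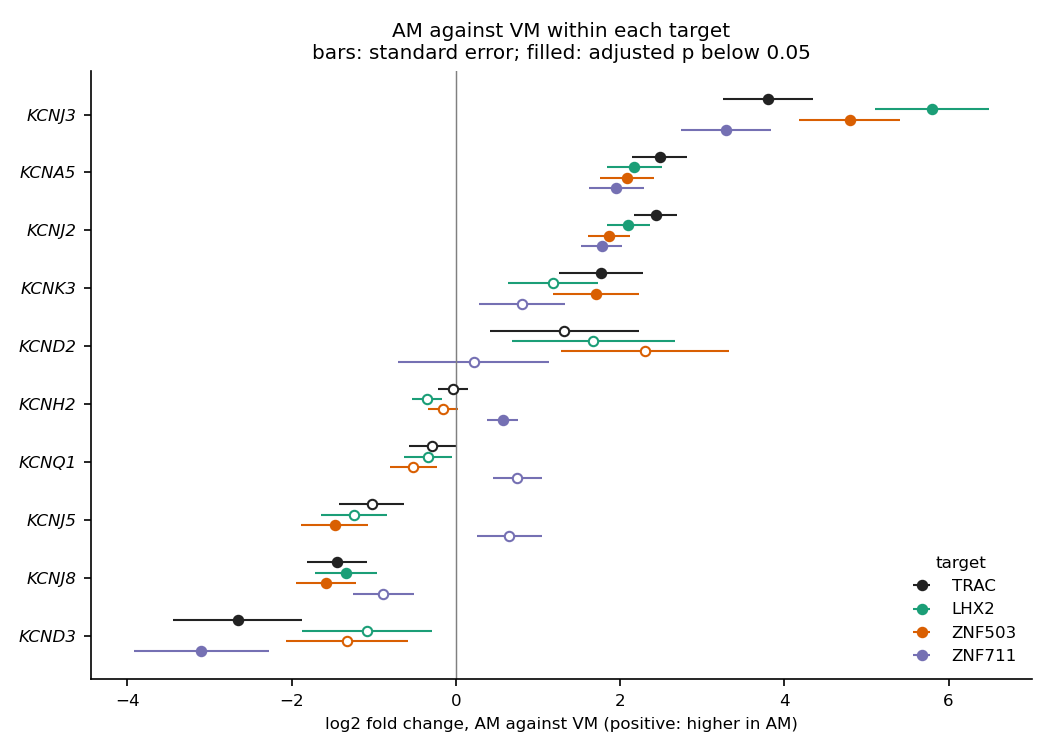
Log2 fold change of AM against VM within each target for the 10 channel genes, with bars for the standard error and filled points where the adjusted p was below 0.05. KCNJ3, KCNA5 and KCNJ2 lie right of 0 in all 4 targets, and KCNJ5 lies left of 0 in TRAC, LHX2 and ZNF503 and right of it in ZNF711 (0.65).

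By their marker sums the VM libraries fell into sets that mix target and replicate number. The summed level of 20 cardiomyocyte markers was 41415 to 46163 CPM in replicates 1 and 2 of VM TRAC, LHX2 and ZNF503, and 13673 to 24056 CPM in the replicate 3 libraries and in all 3 VM ZNF711 libraries. The 10 endoderm markers ran the other way, at 1491 to 3983 CPM against 8519 to 26078 CPM, and so did the 10 fibroblast markers, at 1780 to 2591 CPM against 3417 to 5096 CPM. The 8 pacemaker markers were at 589 to 916 CPM against 405 to 551 CPM. In AM the cardiomyocyte sums were 17695 to 34913 CPM, the endoderm sums 284 to 2586 CPM and the fibroblast sums 4229 to 7563 CPM. Between the conditions the pacemaker sums (1081 to 1398 CPM in AM) and the sums of 10 ventricular markers (200.5 to 685 CPM in AM, 744 to 2181 CPM in VM) did not overlap. The sums of 10 atrial markers did overlap. Over the 4 targets 5 of those markers were higher and 3 lower in AM, beside 16.8% and 17.6% of all genes. Alongside, KCNJ5 was 39.2 to 66.3 CPM in the first 6 VM libraries and 19.9 to 39.8 CPM in the other 6, with a slight overlap. KCND3 was 0.940 to 4.29 CPM against 4.803 to 9.98 CPM, and KCNJ3 was 0.188 to 1.17 CPM against 1.20 to 6.11 CPM. The KCNJ3 sets were parted only by 5 counts in VM ZNF503 replicate 1 and 6 counts in VM LHX2 replicate 3. KCND2 was 0 to 0.619 CPM against 0.800 to 1.64 CPM, close to the detection limit. Its sets were parted only by 3 counts in VM TRAC replicate 2 and 4 counts in VM LHX2 replicate 3. KCNA5, KCNJ2, KCNJ8, KCNQ1, KCNH2 and KCNK3 overlapped as well, as with KCNH2 at 111 to 170 CPM against 73.4 to 133 CPM. How many of all genes this split kept apart was not counted. The part of cell composition in these values was not tested. Without all libraries numbered 3, the difference over the targets was −1.30 for KCNJ5, 5.60 for KCNJ3, −1.80 for KCND3 and 2.52 for KCND2, and all 4 passed.

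Per kilobase of exon, which allows genes to be compared, KCNH2 had the highest mean in both conditions, 21.1 ± 2.66 CPM per kilobase in AM and 21.4 ± 5.79 in VM (SD, n = 12). In AM it was followed by KCNA5 (20.4), KCNJ2 (7.19), KCNJ3 (6.79), KCNJ5 (3.93), KCNQ1 (3.73), KCNJ8 (2.69), KCNK3 (1.28), KCND2 (0.319) and KCND3 (0.134). Only the step from KCNA5 to KCNJ2 was free of overlap between neighbours. In VM the order after KCNH2 was KCNJ8 (6.72), KCNJ5 (6.63), KCNA5 (4.48), KCNQ1 (4.02), KCNJ2 (1.78), KCND3 (0.578), KCNK3 (0.477), KCNJ3 (0.360) and KCND2 (0.129), and only the step from KCNH2 to KCNJ8 was free of overlap. KCNA5 thus stood level with KCNH2 in AM, where KCNH2 was the higher in 7 of 12 libraries. The exon lengths come from GENCODE release 29 and may differ from the models used for counting.

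The partners of these pores were examined as 3 further lists. Of 17 auxiliary subunits 13 could be tested, and over the 4 targets 3 were higher and 2 lower in AM; with the replicate block 5 were higher and 2 lower. Without the block that is 38.5% of those tested, near the 34.5% of all genes; with it 41.7% of all genes passed. KCNIP2, the main cardiac partner of the transient outward pores, was 161, 144 and 254 CPM in AM TRAC against 60.5, 82.3 and 52.7 CPM in VM TRAC (1.79 ± 0.17 over the targets, adjusted p = 6.47e-08). KCNIP4 (0.77) and DPP10 (0.43), which bind the same pores, were the others higher in AM, and DPP6 did not pass (−0.38, adjusted p = 0.284). KCNIP2 and KCND2 were thus higher in AM while KCND3 was lower.

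ABCC9, the sulfonylurea receptor that pairs with KCNJ8 and lies beside it on chromosome 12, was lower in AM (−1.57 ± 0.27, adjusted p = 7.86e-05), with 7.41, 7.02 and 9.29 CPM in AM TRAC against 25.4, 29.3 and 9.83 CPM in VM TRAC. The other ATP-sensitive pore, KCNJ11, was lower as well (−1.16 ± 0.20, adjusted p = 5.00e-05), so both pores and ABCC9 had the same sign. ABCC8, the partner best known with KCNJ11, had 0 to 8 counts per library and was not tested. KCNE4, an inhibitory partner of KCNQ1, was lower in AM (−1.37 ± 0.46, adjusted p = 0.0243) at 1 to 57 counts per library. KCNE1, which with KCNQ1 makes the slow delayed rectifier, had 0 to 13 counts per library and was not tested.

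Of 38 other pore subunits 26 could be tested, and 6 were higher and 8 lower in AM, 53.8% of those tested against 34.5% of all genes. KCNV1, a silent modifier of other voltage-gated pores, rose most: 5.62 to 33.0 CPM in AM against 0 to 1.24 CPM in VM (4.54 ± 0.30, adjusted p = 1.14e-11). KCNMA1, the large-conductance calcium-activated channel, was also higher in AM (1.45 ± 0.29, adjusted p = 0.000468). The largest fall was that of KCNH6, a relative of KCNH2, with 0 to 8 counts per AM library and 1 to 110 per VM library; its fitted difference of −6.05 depends on how counts of 0 are handled. KCNQ5, a relative of KCNQ1, was 8.32, 6.24 and 10.4 CPM in AM TRAC against 170.9, 199.9 and 64.5 CPM in VM TRAC, with all VM libraries above all AM libraries (−3.85 ± 0.22, adjusted p = 3.18e-11). Per kilobase of exon KCNQ5 was 2.31 to 6.91 times the level of KCNQ1 in VM and 0.147 to 0.777 times in AM. KCNK5, a two-pore leak channel, was the third in size among the lower genes (−1.30 ± 0.35, adjusted p = 0.00522).

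Of the receptors and G protein genes upstream of the acetylcholine-activated channel, all 12 listed could be tested. In AM 7 were higher and 0 lower, beside 16.8% and 17.6% of all genes. RGS6, a brake on the channel's G protein signal, was 25.9, 24.7 and 26.4 CPM in AM TRAC against 8.001, 4.74 and 5.22 CPM in VM TRAC (1.92 ± 0.12, adjusted p = 2.18e-12). GNG2 (1.90) and RGS4 (1.73) were next. CHRM2, the muscarinic receptor of heart muscle, was 75.6, 62.7 and 93.1 CPM against 44.3, 30.3 and 25.5 CPM (1.38 ± 0.12 over the targets, adjusted p = 2.41e-09), and ADORA1, the adenosine receptor that opens the same channel, differed by 1.42. Over the 4 targets KCNJ5 was thus the one listed component of this channel and its input that was called lower in AM.

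**Figure D4:**
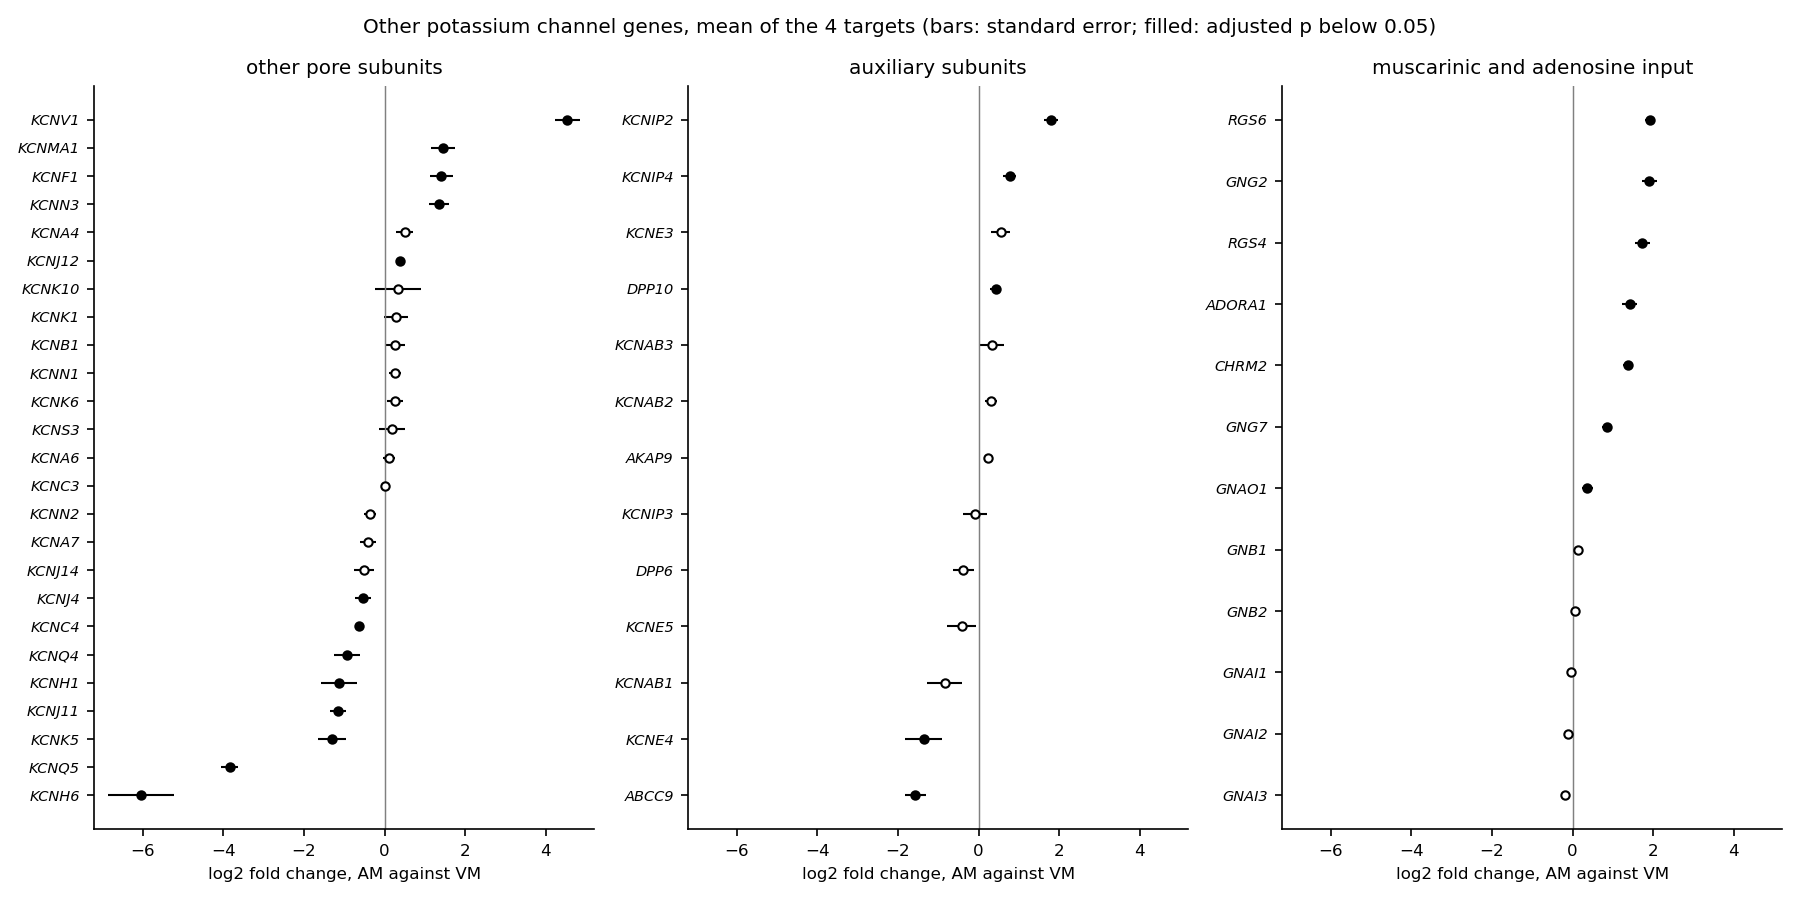
Log2 fold change of AM against VM over the 4 targets for genes of 3 lists (other pore subunits, auxiliary subunits, muscarinic and adenosine input), with bars for the standard error and filled points where the adjusted p was below 0.05. All 7 filled points of the input list lie right of 0, and KCNQ5 (−3.85) and KCNH6 (−6.05) lie farthest to the left.

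Targeting LHX2, ZNF503 or ZNF711 was compared with TRAC within each condition. With edgeR and no replicate block, 0 of the 10 channel genes passed in each of these 6 comparisons, and with DESeq2 also 0 in each. Of all genes 0% passed in 5 of them and 0.0169% in VM ZNF711. At an unadjusted p below 0.05 the counts were 0, 0 and 1 of 10 in AM (LHX2, ZNF503, ZNF711) and 1, 0 and 3 in VM. All comparisons in a condition share the same 3 TRAC libraries. With the block within each condition, 3 of the 10 passed in VM ZNF711, beside 8.38% of all genes, and 1 in AM ZNF711, beside 0.53%.

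In VM ZNF711, KCNJ2 was 10.6, 13.4 and 15.9 CPM against 5.54, 8.46 and 8.49 CPM in TRAC, above all 3 (log2 difference 0.82 ± 0.27, adjusted p = 0.286), and KCNH2 was 73.4, 94.99 and 88.0 CPM against 111, 170.2 and 108 CPM, below all 3 (−0.60 ± 0.19, adjusted p = 0.280). Both passed with the replicate block, in which 2.27% of all genes passed (adjusted p = 0.0301 for KCNJ2 and 0.0174 for KCNH2). KCNQ1 was 9.89, 12.8 and 15.3 CPM against 14.6, 29.3 and 16.4 CPM (−0.66, adjusted p = 0.483) and overlapped. VM ZNF711 also had the lowest cardiomyocyte marker sums among the VM groups, 13673 to 19898 CPM, and their part in these values was not tested. When libraries were scaled to those markers, which moved the median of all genes by 0.81, the differences were 0.30 for KCNH2, 0.27 for KCNQ1 and 1.63 for KCNJ2.

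In AM ZNF711, KCNJ5 was 26.2, 50.9 and 37.5 CPM against 18.1, 13.1 and 28.6 CPM in TRAC (0.94 ± 0.40, adjusted p = 1), and KCNQ1 lay above all 3 TRAC libraries (0.38, adjusted p = 1). Since KCNJ5 was lower than TRAC in VM (−0.73) and higher in AM, its ZNF711 difference differed between conditions by 1.68 ± 0.56 (unadjusted p = 0.00728, adjusted p = 0.589). With the block within each condition this difference passed (adjusted p = 0.000894, 2.54% of all genes), as did KCNJ5 against TRAC in AM ZNF711 (adjusted p = 0.0214, 0.53% of all genes) and VM ZNF711 (adjusted p = 0.0290, 8.38% of all genes). With edgeR, and with DESeq2, 0 of the 10 genes passed in the test of such differences for any target; by edgeR's unadjusted p below 0.05 the counts were 1, 0 and 3. The edgeR background was low, with 0%, 0% and 0.00564% of all genes passing for LHX2, ZNF503 and ZNF711. KCNQ1 (1.04, unadjusted p = 0.0186) and KCNH2 (0.60, unadjusted p = 0.0303) had the same sign as KCNJ5 for ZNF711. AM ZNF711 also had cardiomyocyte marker sums of 24698 to 34913 CPM against 22067 to 26240 CPM in AM TRAC, whose part in these values was not tested; scaled to those markers, which moved the median of all genes by −1.13, the difference between conditions was 0.39 for KCNJ5, −0.24 for KCNQ1 and −0.65 for KCNH2.

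With LHX2 targeted, KCNK3 in AM was 3.21, 7.498 and 5.32 CPM, below the 3 TRAC libraries at 7.77, 14.4 and 9.11 CPM (−0.95, 95% interval −2.02 to 0.11, adjusted p = 0.682). In VM, KCNJ3 had 1, 1 and 6 counts against 3, 2 and 41 in TRAC (−2.23, unadjusted p = 0.0134), a value set by VM TRAC replicate 3, without which it was 0.040. The corresponding difference between conditions, 1.99 (unadjusted p = 0.0488), went to −0.28 without that library. With ZNF503 targeted, KCNJ3 lay above all 3 TRAC libraries in AM (40.7, 42.1 and 40.1 CPM against 31.3, 39.2 and 39.0 CPM, log2 difference 0.17) and KCNJ2 lay above all 3 in VM (9.85, 12.7 and 9.67 CPM, 0.51). Groups that did not overlap numbered 1 of 10 in AM LHX2, 1 in AM ZNF503, 1 in AM ZNF711, 0 in VM LHX2, 1 in VM ZNF503 and 2 in VM ZNF711, against 19%, 8.55%, 11.7%, 5.12%, 4.32% and 10.1% of all genes.

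**Figure D5:**
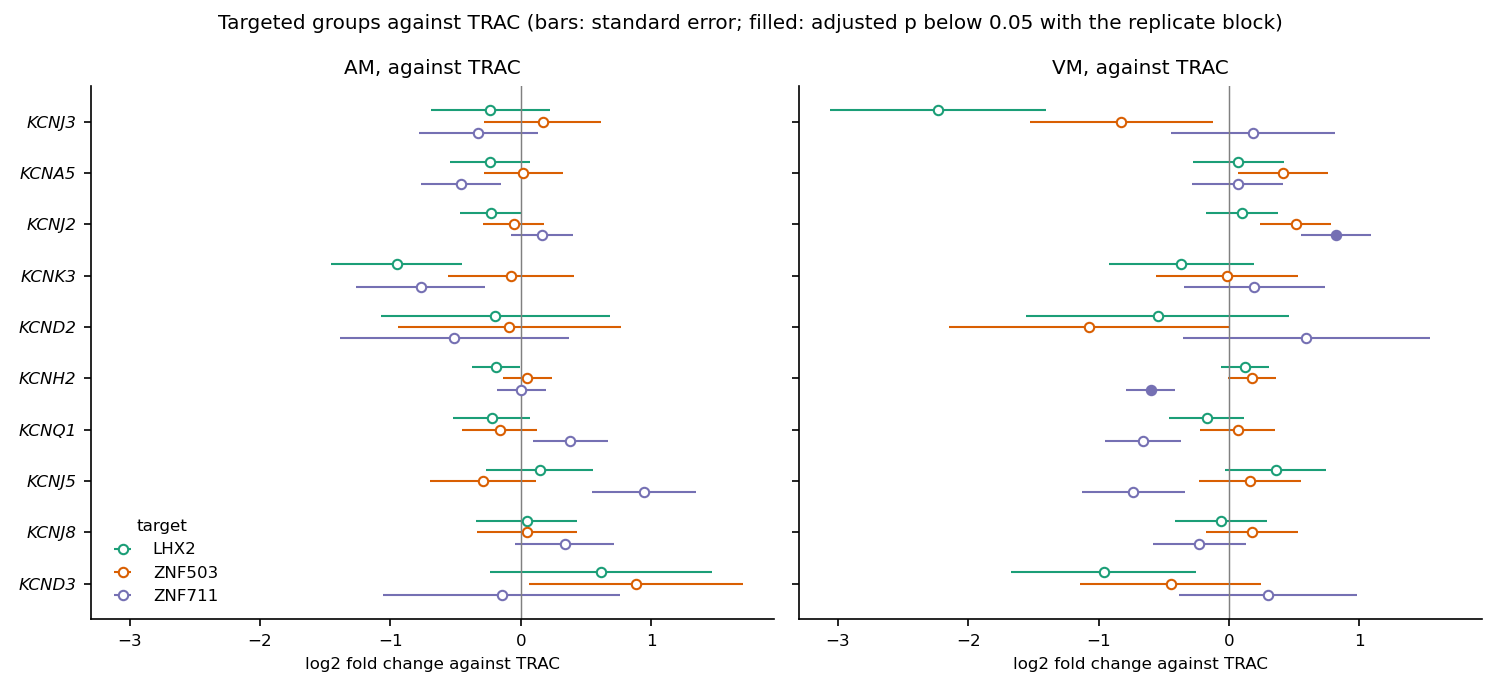
Log2 fold change against TRAC for the 10 channel genes in AM (left) and VM (right), with bars for the standard error and filled points where the adjusted p with the replicate block was below 0.05. Points scatter around 0, and the 2 filled points are KCNJ2 (0.82) and KCNH2 (−0.60) in VM ZNF711.

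Across the 24 libraries, the genes whose log2 level was most like that of each channel were found by Pearson's r; such values mix the difference between conditions with everything else the libraries share, and are given as a description. KCNJ3 was closest to TRABD2B (r = 0.988) and NR2F2 (r = 0.979), KCNJ2 to GAS1 (0.980) and FZD7 (0.969), and KCNA5 to TLN2 and TSPAN18 (both 0.966). KCNJ5 was closest to MYL3 (0.965) and MYLK3 (0.944), muscle genes. KCNJ8 was closest to LINGO1 (0.941) and CKM (0.938), KCNK3 to the endothelial genes ESAM (0.855) and TIE1 (0.851), KCNQ1 to VSTM2L (0.903) and MYL9 (0.871), and KCNH2 to NFIC (0.900) and CBX6 (0.864). KCND3 was closest to SNHG7 (0.901) and LGALS1 (0.899) and KCND2 to LIMA1 (0.812) and PLPPR2 (0.798). After each condition's mean was subtracted, the closest gene was the same for KCNJ5 (MYL3, 0.952) and KCND2 (LIMA1, 0.764). It was another for the other 8. These were MFAP4 for KCNA5 (0.813), H3C10 for KCNJ2 (0.859), CST1 for KCNJ3 (0.932) and MGST3 for KCNJ8 (0.808). The rest were DKK3 for KCNQ1 (0.923), MMP15 for KCNH2 (0.902), KIAA0930 for KCND3 (0.828) and HNRNPLP2 for KCNK3 (0.661). CST1 was scarce, with a mean log2 CPM of −0.48. Earlier matches stayed second closest for KCNJ8 (CKM, 0.778), KCNQ1 (VSTM2L, 0.912), KCNH2 (NFIC, 0.900) and KCNK3 (TIE1, 0.659).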

How the data were processed

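RNA-seq libraries (24) of 8 groups were analysed from the authors' deposited table of raw counts per gene, which holds 62757 Ensembl genes, of which 62686 were matched to a symbol. Per the submitters' processing notes reads were aligned with STAR to GRCh38; the counting program, its strand setting and the annotation release are not given in the sources used here. The labels name both polyA RNA and a ribosomal depletion kit, which affects how antisense and unspliced RNA is counted. Groups came from the sample titles. Genes were kept by edgeR's expression filter (17724), scaled by TMM (factors 0.905 to 1.08), and tested with edgeR 4.0.16 (R 4.3.3), robust quasi-likelihood fit over all 24 libraries, 1 mean per group, 14 comparisons, 16 residual degrees of freedom, Benjamini-Hochberg adjustment over all tested genes, called below 0.05. Standard errors were derived from the test statistic. The fit was run on simulated counts drawn independently for each library, which cannot check the effect of a shared replicate number. Within a replicate number, libraries deviated together in every pair of groups compared (correlations 0.12 to 0.79 over 11428 genes). The main fit did not include the replicate number. The value with the number as a block, over all libraries or within each condition, is given where it changes a call. No pair of replicates agreed within sampling noise. Alternatives were other scalings (relative log expression, library size, cardiomyocyte markers), other filters, DESeq2 1.42.0, only the groups compared, replicate blocks, libraries numbered 3 left out, and single libraries left out. Levels per kilobase used exon unions of GENCODE release 29. Named genes were the 10 members in every comparison; of the other lists at most 3 called genes per direction with the largest change over the 4 targets, plus KCNE1, KCNIP2, DPP6, ABCC8 and ABCC9; antisense genes beside their member; and 2 most alike genes per member. Members with unadjusted p below 0.05 or groups not overlapping are described against TRAC. A gene of the other pore subunits is counted but not reported here. KCNJ11, ADORA1 and CHRM2 were added after their values were seen. The members and lists were chosen with earlier results of these data known.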

Additional observations from a re-analysis of the deposited data

How the results depend on the processing

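Among the counts of channel genes passing, those for AM against VM over the 4 targets stayed at 7 or 8 under every alternative. In ZNF711, AM against VM, 5 became 8 with a replicate block within each condition. The count became 2 with scaling to cardiomyocyte markers, an alternative chosen after seeing the data. That scaling gave 4 in TRAC, 3 in LHX2 and 4 in ZNF503. Leaving out single libraries gave 3 to 5 in ZNF711, and 3 to 5 in place of 6 in ZNF503. In TRAC it gave 4 or 5 in place of 6, and in LHX2 3 to 5 in place of 4. For VM ZNF711 against TRAC, 0 became 2 with the replicate block, 3 with the block within each condition, and 1 (KCNJ3) without the libraries numbered 3; single libraries gave 0 to 2, with 2 (KCNJ3 and KCNH2) without VM TRAC replicate 3. For AM ZNF711 against TRAC, 0 became 1 (KCNJ5) with no filter and 1 with the block within each condition. For VM LHX2 against TRAC it became 1 (KCNJ3) with no filter. For the ZNF711 difference between conditions it became 1 (KCNJ5) with no filter, 1 with the block within each condition and 2 (KCNJ3 and KCNJ5) without the libraries numbered 3. The cause was not tested. For alternatives other than the replicate blocks, the shares of all genes passing are not given here. Changes in these counts therefore cannot be set against changes in the calls of all genes. Apart from the calls given beside KCNQ1, KCNJ2, KCNH2, KCNJ5 and KCNJ8, neither replicate block changed a call of the 10 genes.

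Of 615 values of single genes under settings other than single libraries, 554 kept direction and call, 14 lost the call, 26 gained it and 21 changed sign; of 582 with single libraries left out, 529, 34, 2 and 17 did. Scaled to cardiomyocyte markers, AM against VM in TRAC, LHX2, ZNF503 and ZNF711 became 0.13, 0.10, 0.20 and −0.12 for KCNQ1 and 0.37, 0.11, 0.58 and −0.28 for KCNH2, KCNQ1 over the targets 0.077, and KCNJ5, KCND2 and KCNK3 in ZNF711 −0.16, −0.64 and −0.11. Against TRAC in VM ZNF711, KCNQ1 became 0.27 and KCNH2 0.30, and their ZNF711 differences between conditions −0.24 and −0.65. In ZNF711, AM against VM, adjusted p reached 0.0825 for KCNA5, 0.107 for KCNJ2 and 0.0650 for KCNJ3 among settings other than single libraries. Scaling to cardiomyocyte markers gave their lowest differences there, 1.16, 0.97 and 2.48 in place of 1.95, 1.77 and 3.29. This scaling moved the median of all genes by 0.32, 0.44, 0.67 and −0.82 in the 4 targets and 0.16 over them, 0.81 in VM ZNF711 against TRAC and −1.13 in the ZNF711 difference between conditions; no other scaling shifted it by over 0.1. KCNH2 in TRAC became 0.030 with library size alone, and over the targets −0.00848 with relative log expression, −0.00843 with DESeq2 and −0.056 without the libraries numbered 3. KCND2 in ZNF711 became −0.10 with the block within each condition. Leaving out single libraries gave −3.55 to 0.040 for KCNJ3 in VM LHX2 against TRAC, −0.28 to 3.31 for its LHX2 difference between conditions, −0.47 to 0.090 for KCNQ1 in TRAC, −0.18 to 0.00316 for it over the targets, −0.15 to 0.22 for KCNH2 in TRAC, −0.028 to 0.077 for it over the targets, and −1.39 to 0.68 for KCND2 in ZNF711.

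Depth limits KCND2, KCND3, and KCNJ3 in VM: at 0 to 16 counts in many libraries, 1 library can decide a value. With 3 libraries per group, 95% intervals against TRAC reached from −0.39 to 0.40 for KCNH2 in AM ZNF711 but from −2.38 to 1.36 for KCND2 there.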
